A study of Mus musculus with 18 samples.

Results

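The laminins, nidogens and integrins are the proteins of the basement membrane, the thin sheet of matrix around each fat cell and vessel, and the receptors through which cells hold on to it and to each other. The members were taken by gene symbol, with earlier results of these data known. They are every laminin alpha, beta and gamma chain, both nidogens, and every integrin alpha and beta subunit in the deposited tables. That gave 39 of 21899 gene IDs, namely 13 laminins and nidogens, 18 matrix-binding integrin subunits and 8 leukocyte integrin subunits. The RNA came from inguinal white fat, which lies under the skin, of male C57BL/6J mice. Their subcutaneous injection held either Lewis lung carcinoma (LLC) cells, which grow into a tumour, or phosphate-buffered saline (PBS) as the control. Tissue was taken 7 days after injection, a stage named pre-cachexia, from 4 PBS and 5 LLC samples, and 21 days after injection, named cachexia (tumour wasting), again from 4 and 5. No group carries a transgene or a deletion by the labels, and the age of the mice is not given in the sources used here.

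Laminins are crosses of 1 alpha, 1 beta and 1 gamma chain that assemble into a sheet on the cell surface, and nidogens tie that sheet to the network of type IV collagen. Fat cells, vessels and muscle fibres lay down laminins with different alpha chains. Integrins are pairs of an alpha and a beta subunit: those with Itgb1 bind laminin, collagen or fibronectin, whereas those with Itgb2 or Itgb7 sit on leukocytes and bind mainly other cells.

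The samples differed in ways that touch these genes. Library totals lay between 14566155 and 18969387 counts. The summed TPM (the deposited unit scaled for transcript length) of 8 adipocyte markers lay between 22995 and 42954 in all libraries, so the labelled tissue was present. Day 21 PBS libraries 1 to 3 stood apart from PBS library 4 of that day. Their summed macrophage markers (10 of 10 detected) were 424, 374 and 221 TPM, against 2704 in library 4. Their summed progenitor and fibroblast markers (7 of 7 detected) were 831, 748 and 549.7 TPM, against 2332. Skeletal muscle markers were highest in day 7 PBS library 3 (6543 TPM) and day 21 PBS library 1 (5230 TPM), and B cell markers in day 21 LLC library 3 (1209 TPM). Where leaving out PBS library 4 changed a day 21 call named below, the value without it is given. In bulk tissue, fewer cells of a type and less RNA per cell cannot be told apart. The labels number the samples without saying what separates them. The spread behind each p-value is therefore that between samples and may be technical. Each day has its own table, so the day and whatever was handled by day cannot be told apart.

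Lama2, Itga11 and Itgb7 passed the test between the days in PBS that is given below. Itgam did not, but passed it with day 21 PBS library 4 left out. The promoters of these 4 members are shown. Each is the 250 bases before the RefSeq start on GRCm38.p6, 5′ to 3′ on the gene's strand, and 24 of the 39 members matched an entry of that table. Capitals mark GGGCGG, the GC box, or GAGGAA, a core bound by ETS factors such as PU.1, on either strand, so that a capital run can be the reverse complement. Lama2 is at chr10:27616943-27617192 (minus strand), Itga11 at chr9:62677605-62677854 (plus), Itgam at chr7:128062390-128062639 (plus) and Itgb7 at chr15:102231936-102232185 (minus).
Lama2: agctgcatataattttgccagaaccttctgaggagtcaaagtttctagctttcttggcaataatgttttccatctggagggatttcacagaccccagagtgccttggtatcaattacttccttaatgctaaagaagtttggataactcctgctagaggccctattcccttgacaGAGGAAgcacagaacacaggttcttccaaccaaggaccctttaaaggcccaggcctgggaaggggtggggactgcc
Itga11: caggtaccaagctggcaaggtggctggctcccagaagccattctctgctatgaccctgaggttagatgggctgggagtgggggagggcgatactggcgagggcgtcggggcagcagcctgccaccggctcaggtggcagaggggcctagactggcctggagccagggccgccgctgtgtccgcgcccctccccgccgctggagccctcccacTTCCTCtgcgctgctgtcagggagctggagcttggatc
Itgam: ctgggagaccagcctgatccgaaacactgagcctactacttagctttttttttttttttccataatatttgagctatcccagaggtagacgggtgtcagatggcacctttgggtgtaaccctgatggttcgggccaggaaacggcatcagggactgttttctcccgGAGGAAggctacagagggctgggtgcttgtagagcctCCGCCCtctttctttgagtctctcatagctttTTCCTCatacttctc
Itgb7: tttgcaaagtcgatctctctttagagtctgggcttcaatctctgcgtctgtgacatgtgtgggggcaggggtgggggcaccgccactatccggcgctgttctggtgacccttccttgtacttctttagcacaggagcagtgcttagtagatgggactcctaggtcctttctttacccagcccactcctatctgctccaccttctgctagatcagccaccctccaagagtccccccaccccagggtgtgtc
Of 32536 promoters of the same length, 33.0% held the GC box and 23.4% held the ETS core. The TATA box, TATAAA (12.3% of promoters), TGTGGT, the RUNX core (14%), and TGANTCA, the AP-1 site (6.73%), were in none of the 4. Lama2 had 1 GAGGAA and 0 CG pairs, where the median promoter had 6. Itga11 had 1 GAGGAA and 12 CG pairs. Itgam, the integrin of macrophages and neutrophils, had 2 GAGGAA and 1 GC box, and Itgb7 had neither. These are matches of letters in a window, and the Lama2 window lies inside the longest gene model of GENCODE.

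Nid1, Lamc1, Lamb2, Lama4 and Lamb1 had the highest levels of the laminins and nidogens in day 7 PBS fat. Per length, Nid1 stood at 494 ± 102 TPM (SD, n = 4) and Lamc1, the gamma chain of most laminins, at 235 ± 29.7. Lamb2 (138 ± 22.1), Lama4 (112 ± 22.2) and Lamb1 (108 ± 20.0) followed, and the levels of these 3 overlapped within their spread. Lama2 was at 82.8 ± 20.2 TPM and Nid2 at 45.0 ± 10.3. Lama5, Lamc3, Lamb3 and Lama3 lay between 1.45 and 8.54 TPM, and Lama1, an embryonic chain, was at 0.00950. Among matrix-binding integrins, Itgb1 stood first (215 ± 20.2 TPM), followed by Itgb5 (94.7 ± 13.3) and Itga7 (85.8 ± 5.59).

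Laminin chains and nidogen 1 were lower at day 21 than at day 7 in control fat. In the PBS comparison, 8 of the 36 members tested passed the threshold (edgeR quasi-likelihood test, adjusted p under 0.05), all of them lower. Across all genes tested, 3.21% were called in that comparison and 2.52% were called lower. Progenitor and fibroblast markers were lower too: 3 of 7 fell, their median log2 difference was -1.38, and their sum was 2674 to 4302 TPM in day 7 PBS. Their part in the results was not tested. By role, 5 of 12 laminins and nidogens fell, among them Lama2, Lamb2, Lamc1 and Nid1, as did 2 of 17 matrix-binding integrins (Itga2 and Itga11) and 1 of 7 leukocyte integrins (Itgb7). The median log2 difference of the 36 was -0.35, against 0.01 over all genes. The groups did not overlap for 10 members, all lower, and the share of all genes lower without overlap was 8.45%. Lama1, Itgb6 and Itgad did not pass the filter on low counts: their levels reached at most 0.347, 2.11 and 1.04 CPM (counts scaled to a library of standard size).

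Lama2, the alpha chain of laminin around muscle fibres, Schwann cells and fat cells, had the largest fall of the laminins. Its levels were 225, 267, 230.4 and 323 CPM in day 7 PBS and 53.1, 58.4, 37.9 and 103 CPM in day 21 PBS. Every day 21 library was below every day 7 library, with library 4 the highest of its group on each day. The log2 difference was -2.05 ± 0.29 (SE, edgeR adjusted p = 0.00269), a 4.13-fold lower level. It passed the threshold in all 8 fits that left out 1 library of the compared groups.

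Lamb2, a beta chain that can replace Lamb1, showed the same order. It had 349, 349, 317 and 387 CPM at day 7 and 159, 137, 132 and 201 CPM at day 21 in PBS. The groups did not overlap, and the log2 difference was -1.16 ± 0.20 (edgeR adjusted p = 0.00891), with 0.0533 when day 21 PBS library 2 was left out. Lamc1 read 811, 799, 791 and 926 CPM at day 7 and 450.2, 377, 377 and 491 CPM at day 21. Lamc1 groups lay apart too, with a log2 difference of -0.97 ± 0.16 (edgeR adjusted p = 0.00702) that held in all 8 such fits.

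Nid1, the linker between laminin and type IV collagen, was at 1357, 1524, 1432 and 1786 CPM in day 7 PBS and at 642, 577, 516 and 907 CPM in day 21 PBS. The difference of -1.21 ± 0.24 (edgeR adjusted p = 0.0196) was past the threshold in 3 of the 8 fits that left out a library. It was lost without day 7 PBS library 2 or 4 or day 21 PBS library 1, 2 or 3, with an edgeR adjusted p of up to 0.0898. With only the 2 PBS groups in the fit, Itga2 was lost (edgeR adjusted p = 0.0602), and 6.01% of all genes were called.

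Not every chain followed. Lama4, the alpha chain of vessel and fat cell laminin, was at 308, 342, 326 and 398 CPM in day 7 PBS and 334, 297, 207 and 307 CPM in day 21 PBS. Lamb1 was at 266, 338, 313 and 342 CPM and then 261, 224, 258 and 340.2 CPM. Both sets overlapped, and the log2 differences were -0.26 ± 0.17 for Lama4 and -0.22 ± 0.15 for Lamb1 (edgeR adjusted p = 0.39 and 0.418). Per length, the ratio of Lama4 to Lama2 was 1.30 to 1.45 in day 7 PBS. In day 21 PBS it was 4.81, 3.98, 4.43 and 2.46. The ratio of Lamb1 to Lamb2 was 0.632 to 0.871 at day 7 and 1.41 to 1.86 at day 21 in PBS. These ratios set a chain that passed the test against 1 that did not, and their difference was not tested.

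**Figure D1:**
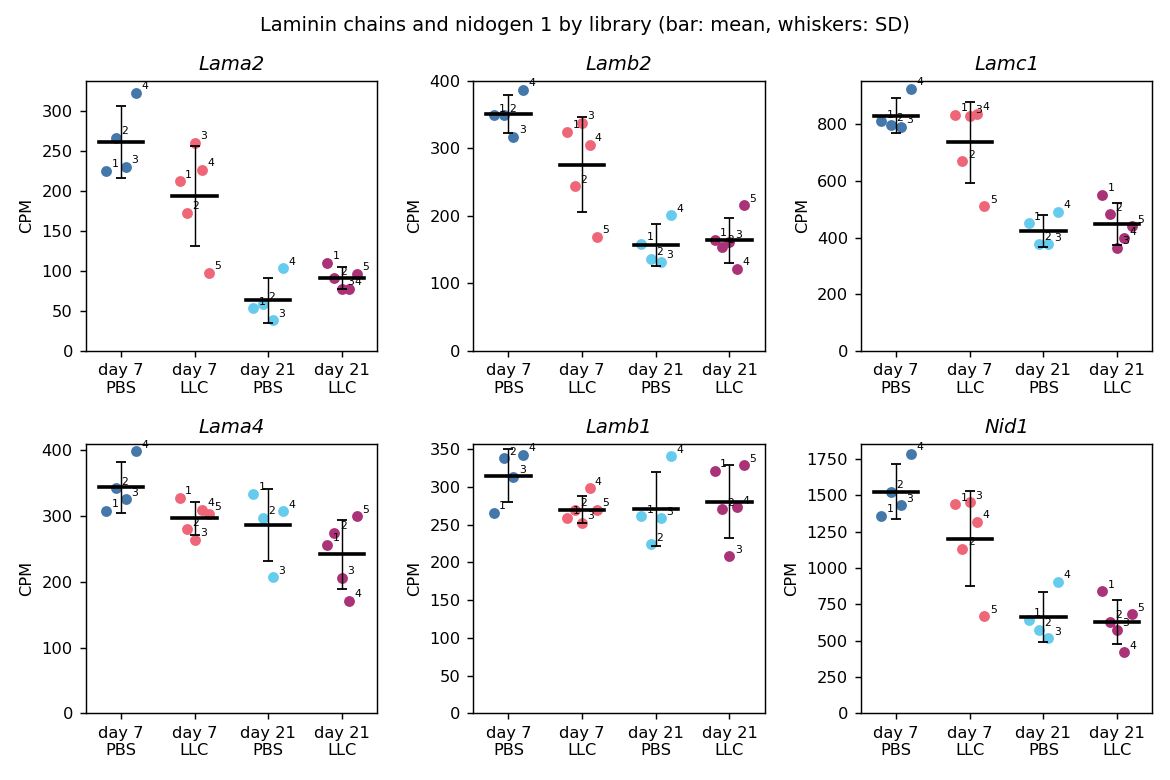
CPM of 6 laminin and nidogen genes in each of the 18 libraries, by group; points are libraries with their number, bars are means and whiskers are SD. Lama2, Lamb2, Lamc1 and Nid1 of day 21 PBS lie below all day 7 PBS points, whereas Lama4 and Lamb1 overlap.

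Laminin chains were also lower at day 21 among tumour-bearing mice, and Lama2, Lamb2, Lamc1 and Nid1 were called in both PBS and LLC. In LLC, 6 of the 36 members passed the threshold, 5 lower and 1 higher, where 1.77% of all genes were called (0.93% lower and 0.844% higher). Lama2 (-1.09 ± 0.25, edgeR adjusted p = 0.0426), Lamb2 (-0.75 ± 0.18, 0.0459), Lamc1 (-0.72 ± 0.15, 0.029) and Nid1 (-0.93 ± 0.22, 0.0426) fell, each in 3 or 4 of 10 fits that left out 1 library. Lamc3 fell as well, and Itgb7 rose, the latter in 4 of 10. With only the 2 LLC groups in the fit, 0 of these 6 passed the threshold (edgeR adjusted p from 0.134 to 0.188), and 0.0148% of all genes did. DESeq2 called 5.71% of all genes in that comparison.

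In LLC fat, Lama2 read 212, 173, 259.9, 226 and 97.1 CPM at day 7 and 109.98, 90.7, 77.8, 77.6 and 96.6 CPM at day 21. Library 5 of day 7 sat inside the day 21 range and the other day 7 libraries above it. That library also had the lowest Nid1 of its group, 667 CPM against 1131 to 1452, and the lowest progenitor and fibroblast sum, 1480 TPM against 2385 to 3607. Lamc1 was at 835, 669, 829, 838 and 511 CPM at day 7 and 552, 483, 364, 398 and 439 CPM at day 21, so that the groups overlapped through library 5. In day 21 LLC, Nid1 was at 839.5, 630.04, 576, 420.2 and 681 CPM, and the part of the stromal markers in these differences was not tested.

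For the chains that fell in both, 0 of 4 passed the test of the difference between PBS and LLC. The tumour effect at day 21 minus that at day 7 was 0.95 ± 0.38 for Lama2, 0.41 ± 0.27 for Lamb2, 0.25 ± 0.22 for Lamc1 and 0.28 ± 0.32 for Nid1 (edgeR adjusted p from 0.194 to 0.68). Without day 21 PBS library 4, Lama2 had 1.30 ± 0.33 (edgeR adjusted p = 0.0244). LLC against PBS within day 21 was 0.50 ± 0.26 for Lama2 (edgeR adjusted p = 0.273), and 0.84 ± 0.18 without that library (0.0268). Of all 36 members, 2 passed in this test, Itgb7 higher and Lamc3 lower, and 0.415% of all genes did. Without day 21 PBS library 4 the count was 11 members and 8.64% of all genes, and DESeq2 gave 4 members and 5.09%.

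**Figure D2:**
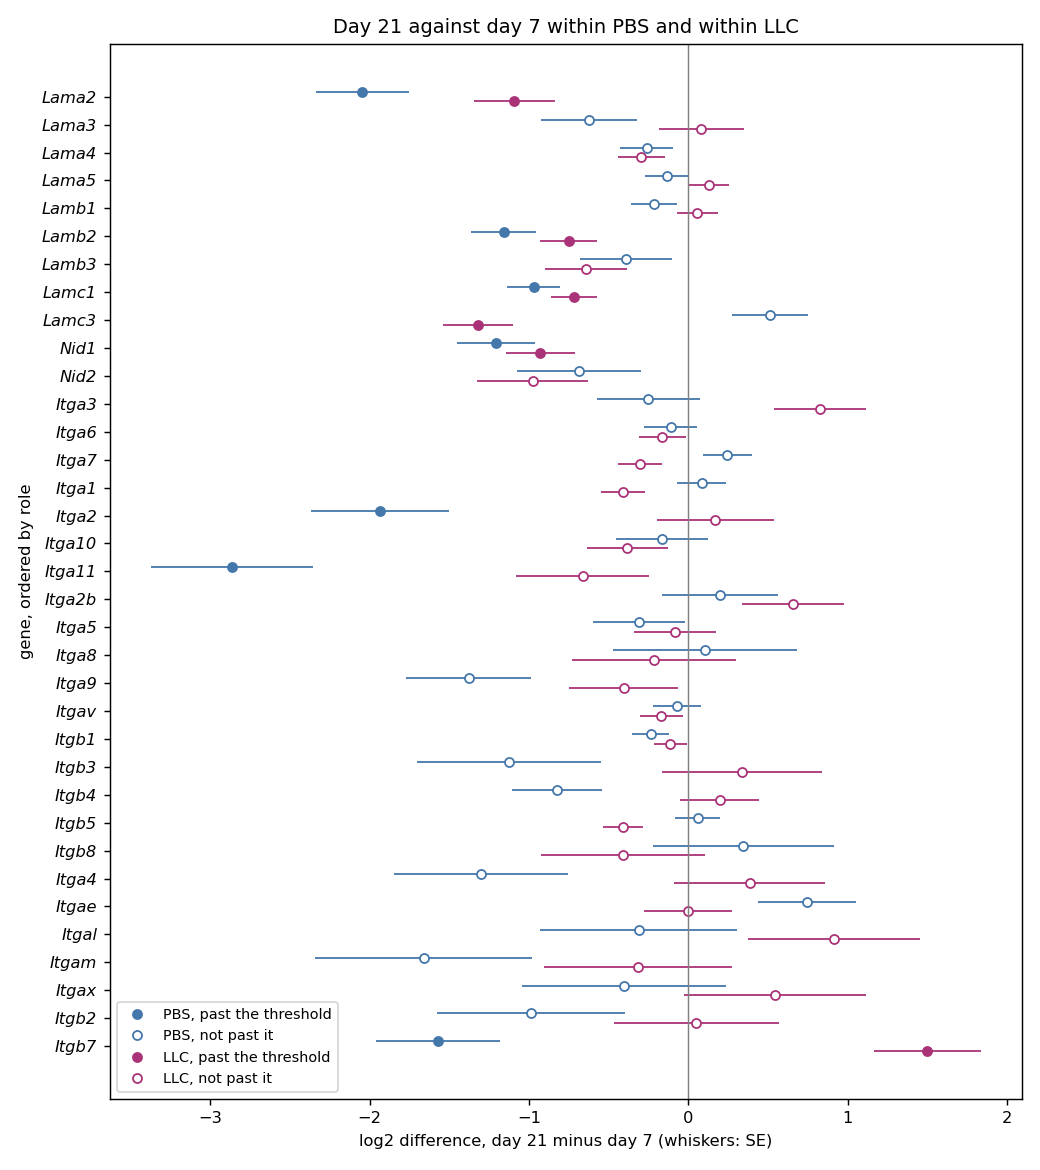
Log2 difference of day 21 minus day 7 for 35 of the 36 tested members, in PBS and in LLC, with SE as whiskers; filled points passed the edgeR threshold. Lama2, Lamb2, Lamc1 and Nid1 are filled on the left in both, Lamc3 is filled in LLC, and Itgb7 is filled on opposite sides.

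Lamc3, a gamma chain of laminins found outside the classic sheet, fell in LLC and did not pass in PBS (0.51 ± 0.24, edgeR adjusted p = 0.24). It was at 11.8, 13.3, 15.7 and 14.1 CPM in day 7 PBS and at 18.4, 16.2, 17, 15.8 and 18.8 CPM in day 7 LLC. At day 21 it was at 23.4, 21.9, 17.2 and 15.6 CPM in PBS and at 8.11, 7.99, 3.42, 4.87 and 10.1 CPM in LLC. Day 7 LLC lay above PBS and day 21 LLC below PBS, with no overlap at either day. The fall from day 7 to day 21 in LLC was -1.32 ± 0.22 (edgeR adjusted p = 0.0183) and held in 10 of 10 fits that left out a library. The tumour effect differed between days by -1.83 ± 0.33 (edgeR adjusted p = 0.0269), in 9 of 18 such fits. Within day 21 the log2 difference was -1.52 ± 0.30 (edgeR adjusted p = 0.0634), and within day 7 it was 0.33 ± 0.10 (0.425). The day 21 difference passed without PBS library 4 (-1.62 ± 0.33, edgeR adjusted p = 0.0211), with a muscle score as covariate (0.0465) and with DESeq2 (adjusted p = 0.000282). Summed Schwann cell markers (6 of 6 detected) were between 189 and 518 TPM in day 21 LLC and between 534 and 949 TPM in day 21 PBS. At day 7, Lamc3 did not run with those sums in every library. LLC library 5 and PBS library 3 of that day had the lowest sums of their groups, 277 and 343 TPM, beside the highest Lamc3. The part of Schwann cells was not tested. In GENCODE, 6.27% of Lamc3 exon bases are shared with an antisense gene, Gm13441.

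At day 7 no member passed the test of LLC against PBS: 0 of 36 passed the threshold with edgeR and 0 with DESeq2, and 4 had an unadjusted p under 0.05 with edgeR. Among all genes, 1144 of 13445 had such a p with edgeR. Of all genes 0.00744% were called at that day by edgeR and 0.478% by DESeq2. Lamc3 and Itga5, the alpha subunit of the fibronectin receptor, were higher in every LLC library than in any PBS library, as were 1.2% of all genes. Itga5 was at 37.2, 35.3, 36.2 and 37.9 CPM in PBS and at 38.1, 85.2, 38.6, 53.2 and 43.5 CPM in LLC, with LLC library 2 far above the rest. Its log2 difference was 0.50 ± 0.21 (edgeR adjusted p = 0.562). At day 21 the Itga5 difference was 0.70 ± 0.29 (edgeR adjusted p = 0.192), and 1.08 ± 0.21 without PBS library 4 (0.0194).

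At day 21 the tumour comparison also gave 0 of 36 members with edgeR, and 13 had an unadjusted p under 0.05, as had 3164 of 13564 genes. The share of all genes called by edgeR was 0.0885%. DESeq2 called 9 members, 6 higher and 3 lower, with 10.7% of all genes. The authors' deposited table has 8 members with a false discovery rate under 0.05, and the share of all genes under that rate there was not counted. Without PBS library 4, edgeR called 13 members, 11 higher and 2 lower, and 9.3% of all genes. With LLC libraries 1 and 3 left out as well it called 12 members and 7.18% of all genes, and 1 fit of all 18 libraries called 12 members and 19%. The PBS libraries here are the same as in the comparison of the days, so the 2 results share them. The members nearest the threshold were Itgb7, Lamc3, Itga2 and Itgb5.

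Itga2 and Itga11 are alpha subunits of collagen receptors, and Itga11 is typical of fibroblasts. Itga2 was at 7.99, 8.01, 3.57 and 6.08 CPM in day 7 PBS and at 5.14, 6.08, 7.96, 8.67 and 3.01 CPM in day 7 LLC. In day 21 tissue the values were 1.27, 1.19, 0.585 and 3.62 CPM in PBS and at 7.37, 6.06, 7.62, 7.27 and 6.34 CPM in LLC. The day 21 groups did not overlap, as for 5.21% of all genes in the higher direction. The difference was 2.03 ± 0.46 (edgeR adjusted p = 0.0751), and 2.74 ± 0.32 without PBS library 4 (0.00203). In PBS, Itga2 fell by 1.94 from day 7 to day 21 on the log2 scale (SE 0.43, edgeR adjusted p = 0.0277), and held in 2 of 8 fits that left out a library.

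Itga11 was at 28.9, 37.8, 27.6 and 41.5 CPM in day 7 PBS and at 30.3, 23.8, 27.0, 28.2 and 7.63 CPM in day 7 LLC. Day 21 gave 3.38, 2.20, 1.43 and 11.6 CPM in PBS and at 13.6, 15.4, 18.7, 13.8 and 12 CPM in LLC. All day 21 libraries but none of day 7 PBS were under 20 CPM, and PBS libraries 1 to 3 were the lowest of all 18. In PBS the log2 difference between days was -2.86 ± 0.51 (edgeR adjusted p = 0.00909), with 0.0533 without day 21 PBS library 2. LLC against PBS at day 21 was 1.64 ± 0.55 (edgeR adjusted p = 0.129) and 2.63 ± 0.31 without PBS library 4 (0.00221). Day 21 PBS libraries 1 to 3 and day 7 LLC library 5 had the lowest Itga11 and also the lowest progenitor and fibroblast sums. Elsewhere the 2 did not run together throughout. Day 21 LLC library 1 had 13.6 CPM beside a sum of 2946 TPM, and day 7 PBS library 1 had 28.9 CPM beside 2804 TPM. The part of those cells was not tested.

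With edgeR, 0 of the laminin receptor subunits Itga3, Itga6, Itga7, Itgb1 and Itgb4 passed in the 5 comparisons. DESeq2 called Itga3 (1.15 ± 0.40, adjusted p = 0.0405), Itgb4 (1.00 ± 0.32, 0.0262) and Itga7 (-0.61 ± 0.20, 0.0304) at day 21, and the edgeR fit of all 18 libraries called these 3 as well. Without day 21 PBS library 4, edgeR called 1 of them, Itgb4, at day 21 (1.27 ± 0.29, adjusted p = 0.0316). Itgb1, the beta partner of most matrix integrins, was at 418, 412, 413 and 427 CPM in day 7 PBS and at 452, 431, 394, 420.4 and 411 CPM in day 7 LLC. By day 21 it stood at 346, 340.1, 350.2 and 379 CPM in PBS and at 516, 369, 323, 348 and 390.01 CPM in LLC. All 4 day 21 PBS values lay below the day 7 PBS values, at -0.24 ± 0.12 (edgeR adjusted p = 0.266), and LLC overlapped PBS at each day.

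Itga6, the alpha subunit of laminin receptors on vessels and epithelia, was at 68.7, 68.7, 65.6 and 71.3 CPM in day 7 PBS and at 79.2, 67.4, 57.9, 65.4 and 64.6 CPM in day 7 LLC. The day 21 levels were 57.1, 59.3, 71.3 and 65.6 CPM in PBS and at 73.5, 81.2, 50.9, 50.2 and 42.3 CPM in LLC, where the widest spread was found. Its log2 differences lay between -0.16 and -0.03 in the 5 comparisons. Itgav, the alpha subunit that binds vitronectin, was at 50.1, 51.4, 46.5 and 52.8 CPM in day 7 PBS and at 54.6, 55.1, 51.5, 52.0 and 50.4 CPM in day 7 LLC. At day 21 it was at 44.1, 52.1, 48.6 and 46.0 CPM in PBS and at 70.2, 44.7, 44.0, 35.0 and 39.9 CPM in LLC, with LLC library 1 above the others.

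Itga7, the laminin receptor subunit of muscle, was at 181, 167, 177 and 174 CPM in day 7 PBS and at 201, 158, 169.9, 151 and 168 CPM in day 7 LLC. In day 21 tissue the values were 248, 206, 206 and 168 CPM in PBS and at 175, 147, 109, 103 and 152 CPM in LLC. LLC library 1 overlapped PBS library 4, and the log2 difference was -0.61 ± 0.18 (edgeR adjusted p = 0.11). The highest library, PBS 1, also had the highest muscle marker sum of the day. Elsewhere the 2 did not run together throughout. Day 21 PBS library 3 had a sum of 72.0 TPM beside 206 CPM. Day 7 PBS library 3 had the highest sum of all, 6543 TPM, beside 177 CPM, within the range of its group. Without day 21 PBS library 1 the difference was -0.52 ± 0.20 (edgeR adjusted p = 0.288), and with a muscle score as covariate it was -0.60 ± 0.19 (0.11). Itgb5, which pairs with Itgav, was at 133, 143, 129 and 149.7 CPM in day 7 PBS and at 154, 111, 130.2, 123 and 111 CPM in day 7 LLC. Day 21 gave 169.7, 144, 130.1 and 132 CPM in PBS and at 95.6, 103, 100.3, 65.9 and 108 CPM in LLC. Every day 21 LLC value was below every PBS value, as for 4.42% of all genes in the lower direction, and the log2 difference was -0.63 ± 0.16 (edgeR adjusted p = 0.0788). It passed without PBS library 4 (-0.67 ± 0.17, edgeR adjusted p = 0.0473) and with DESeq2 (adjusted p = 0.00798).

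**Figure D3:**
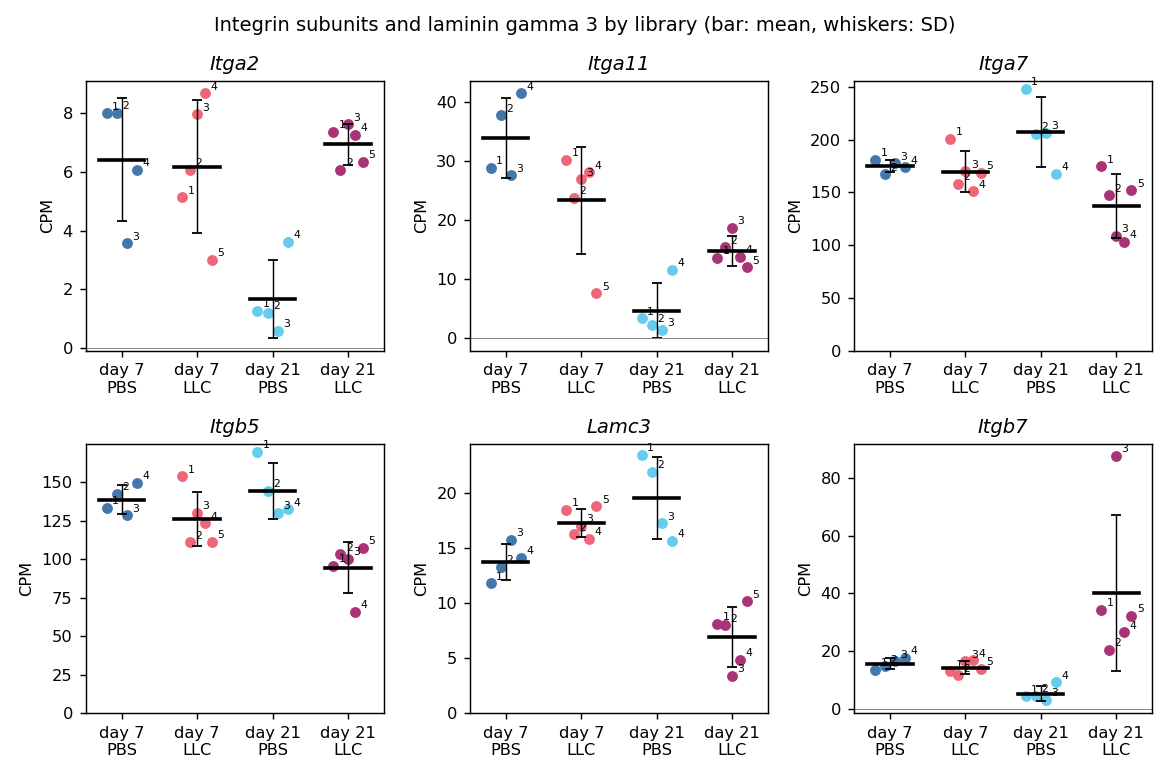
CPM of 4 matrix integrin subunits, Lamc3 and Itgb7 by library and group; bars are means and whiskers are SD. At day 21, Itga2, Itga11 and Itgb7 of LLC lie above all PBS points, Itgb5 and Lamc3 lie below them, and Itga7 overlaps.

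The other matrix integrins gave no call in the main edgeR fits. Itga9 (-1.38 ± 0.39), Itgb3, the platelet and macrophage vitronectin receptor subunit (-1.13 ± 0.58), and Itgb4, of hemidesmosomes (-0.83 ± 0.28), had the most negative of these PBS values. DESeq2 called Itga9 in PBS (adjusted p = 0.013), and without PBS library 4 edgeR called it at day 21 (1.67 ± 0.33, adjusted p = 0.0211). All 3 passed with edgeR without day 21 PBS library 4, where 13 members were lower and 12% of all genes were called. Itgb3 was at 1.57, 1.95 and 2.28 CPM in day 21 PBS libraries 1 to 3 and at 17.8 CPM in library 4. Itga3, Itga1, Itga10, Itga2b, Itga8 and Itgb8 had PBS log2 differences between -0.25 and 0.35, none past the edgeR threshold.

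For Itgam, Itgb2 and Itgax, library 4 of the day 21 controls lay far above the other 3, which was not so for Itgal and Itgae. Itgam, the alpha subunit of complement receptor 3 on macrophages and neutrophils, was at 68.8, 63.7, 62.9 and 107 CPM in day 7 PBS and at 71.8, 117, 85.5, 138 and 53.7 CPM in day 7 LLC. By day 21 it stood at 6.04, 8.23, 5.92 and 75.1 CPM in PBS and at 152, 68.7, 52.2, 60.4 and 39.3 CPM in LLC. PBS libraries 1 to 3 were the lowest of all 18 libraries, and library 4 was in the range of the other groups. LLC against PBS was 1.62 ± 0.83 (edgeR adjusted p = 0.263), and 3.45 ± 0.48 without library 4 (0.00505). GENCODE gives 68.7% of Itgam exon bases also to a same-strand gene, Gm49368, so reads may be divided between them.

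Itgb2, its beta partner, was at 39.6, 42.3, 55.5 and 91.5 CPM in day 7 PBS and at 48.1, 88.8, 61.0, 86.6 and 45.8 CPM in day 7 LLC. The day 21 levels were 13.4, 13.9, 9.43 and 78.6 CPM in PBS and at 125, 65.3, 85.2, 38.7 and 27.2 CPM in LLC. The split was that of Itgam, and the log2 difference was 1.22 ± 0.69 (edgeR adjusted p = 0.306), or 2.46 ± 0.50 without library 4 (0.0214). Itgax, which encodes CD11c, the alpha subunit of complement receptor 4, was at 3.47, 3.65, 7.21 and 17.2 CPM in day 7 PBS and at 5.45, 6.40, 3.46, 6.12 and 5.60 CPM in day 7 LLC. At day 21 it was at 3.20, 3.14, 2.99 and 14.5 CPM in PBS and at 13.8, 8.45, 11.6, 2.09 and 3.27 CPM in LLC, so the groups overlapped. Macrophage marker sums were low in the PBS libraries with low Itgam and Itgb2, and their part was not tested. Itgax did not follow those sums throughout: day 7 LLC library 3 had the lowest Itgax of its group beside a sum of 2957 TPM.

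**Figure D4:**
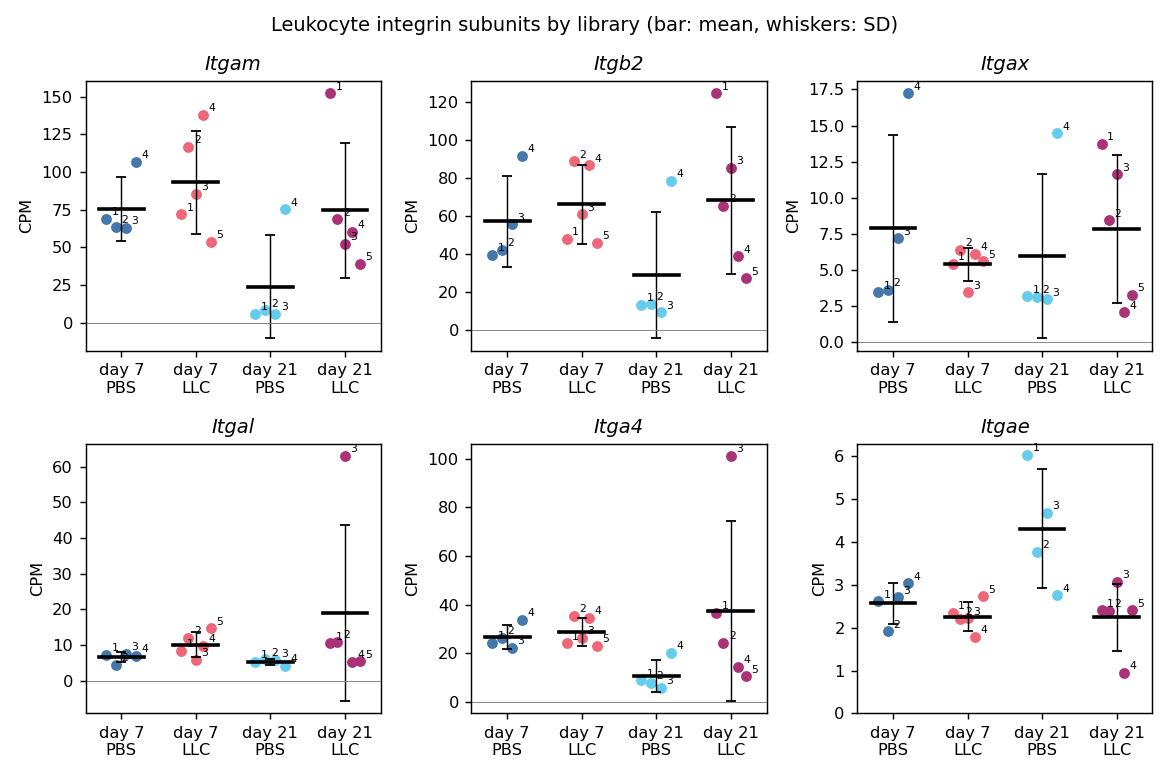
CPM of 6 leukocyte integrin subunits by library and group; bars are means and whiskers are SD. Itgam and Itgb2 of day 21 PBS libraries 1 to 3 lie near the axis with library 4 far above, and LLC library 3 of day 21 is the highest for Itgal and Itga4.

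Itgal, the alpha subunit of LFA-1 on lymphocytes, was at 7.27, 4.54, 7.52 and 7.01 CPM in day 7 PBS and at 8.42, 12, 5.85, 9.75 and 14.7 CPM in day 7 LLC. In day 21 tissue the values were 5.31, 5.97, 5.72 and 4.17 CPM in PBS and at 10.5, 10.9, 63.0, 5.25 and 5.41 CPM in LLC, with LLC library 3 alone above 15 CPM. That library also held Itga4 at 101 CPM, where the other day 21 LLC libraries had 10.6 to 36.6 CPM, and a T and NK marker sum of 133 TPM against 12.4 to 23.5. Itgae, the alpha subunit that binds E-cadherin, lay between 0.948 and 6.04 CPM over all libraries. Its mean was 4.31 CPM in day 21 PBS and 2.24 CPM in day 21 LLC, a log2 difference of -0.96 ± 0.36 (edgeR adjusted p = 0.159). With 1 fit of all 18 libraries that difference passed the threshold (-0.94 ± 0.29, edgeR adjusted p = 0.0331).

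Itgb7 pairs with Itga4 or Itgae on gut-homing lymphocytes and is also made by mast cells. It was at 13.5, 14.7, 16.4 and 17.7 CPM in day 7 PBS and at 12.9, 11.6, 16.3, 16.7 and 13.7 CPM in day 7 LLC. Day 21 gave 4.29, 4.40, 3.12 and 9.07 CPM in PBS and at 34.2, 20.5, 87.6, 26.5 and 32.3 CPM in LLC. The day 21 groups lay on either side of all day 7 libraries, with LLC library 3 highest. The tumour effect differed between days by 3.07 ± 0.51 (edgeR adjusted p = 0.0199), in 12 of 18 fits that left out a library. With the replicate number as a block it was no longer past the threshold (edgeR adjusted p = 0.0752). Within LLC it rose by 1.5 ± 0.34 from day 7 to day 21 (edgeR adjusted p = 0.0398), and within PBS it fell by 1.57 (SE 0.39, 0.0392), the latter in 1 of 8 such fits. LLC against PBS at day 21 was 2.92 ± 0.50 (edgeR adjusted p = 0.0527). It was 3.33 ± 0.53 without PBS library 4 (0.00873).

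Markers of cells that carry Itgb7 are given beside it. Summed mast cell markers (6 of 6 detected) were at 10.6, 9.86, 13.4 and 14.9 TPM in day 21 PBS and between 90.3 and 182 TPM in day 21 LLC. They were between 55.6 and 139 TPM at day 7, so that they too were lowest in day 21 PBS. B cell markers were at 1209 TPM in day 21 LLC library 3 and at most 10.4 TPM in the other libraries. Without day 21 PBS library 4 and LLC libraries 1 and 3, Itgb7 was still 2.73 ± 0.23 higher in LLC (edgeR adjusted p = 0.00171). Per length, the ratio of Itgb7 to Itgb2 was 0.341, 0.358, 1.18, 0.781 and 1.31 in day 21 LLC and 0.126 to 0.379 in both PBS groups. The part of mast cells and lymphocytes was not tested.

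**Figure D5:**
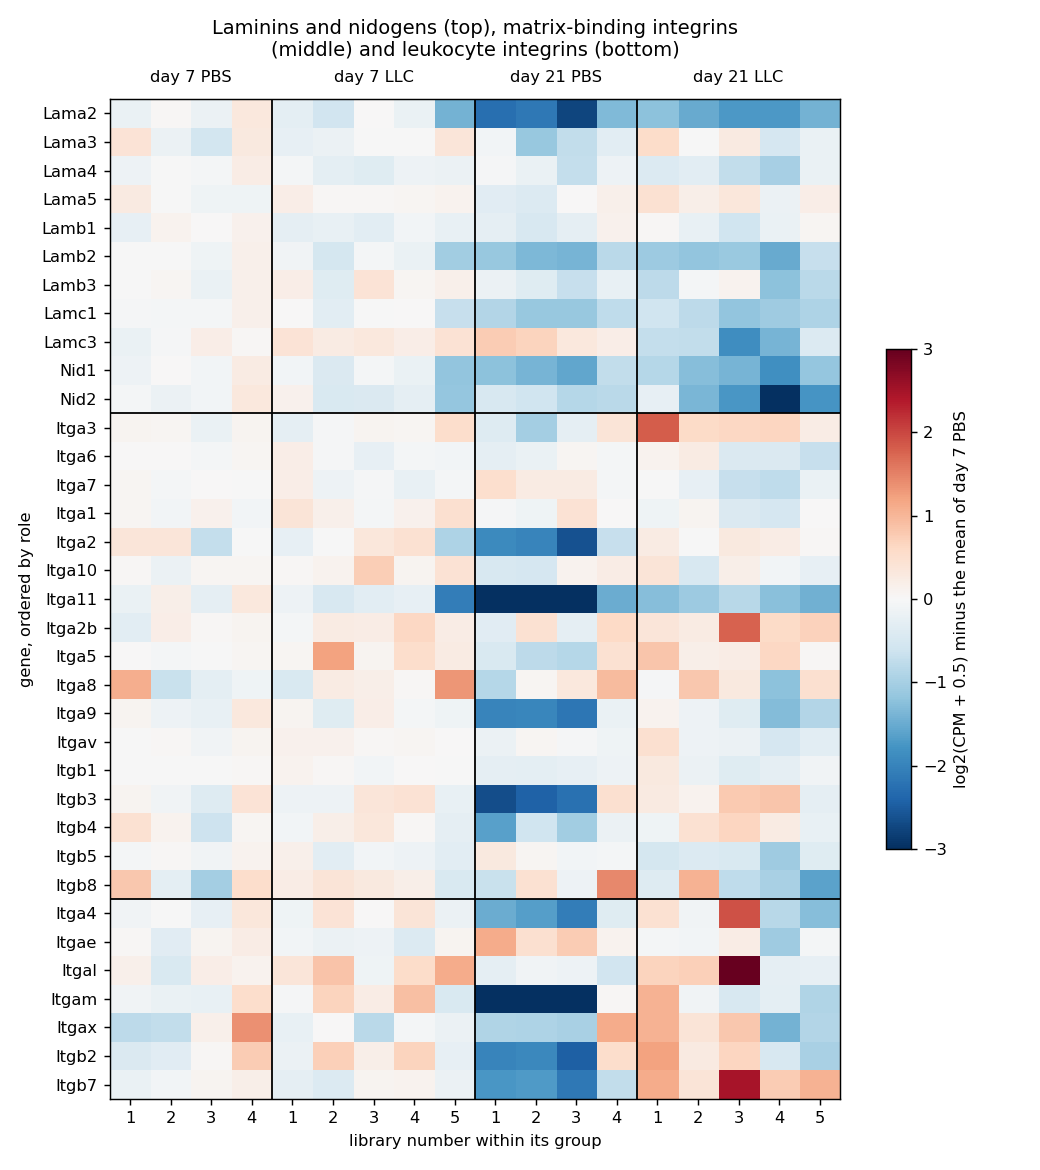
log2(CPM + 0.5) of 35 of the 36 tested members in 18 libraries, relative to the mean of day 7 PBS, with colours clipped at 3 in either direction. Day 21 PBS libraries 1 to 3 are blue for Lama2, Itga11, Itgam and Itgb2, and the day 21 LLC libraries are blue for Lamc3 and red for Itgb7.

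Genes around these proteins were counted from lists drawn up by role. Of 20 basement membrane partners, 4 fell in PBS and 4 in LLC from day 7 to day 21, where 2.52% and 0.93% of all genes were called lower. Smoc2, a matricellular calcium-binding protein, was at -1.36 ± 0.26 and -1.10 ± 0.23 (edgeR adjusted p = 0.0141 and 0.0333), and Pxdn, the peroxidase that crosslinks type IV collagen, at -0.41 ± 0.11 and -0.49 ± 0.09 (0.0451 and 0.0222). Of 11 matrix ligands of integrins, 2 fell in PBS and 0 passed in LLC: Fn1 (-3.33 ± 0.88, edgeR adjusted p = 0.0482) and Fbn1 (-2.61 ± 0.66, 0.0426). Of 7 laminin receptors other than integrins, 0 passed in PBS and 1 fell in LLC, Sgcd, a sarcoglycan (-0.68 ± 0.17, edgeR adjusted p = 0.0465). Dag1, which encodes dystroglycan, was at -0.52 ± 0.14 there (0.0663).

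Of 19 adaptors that tie integrins to actin, 2 fell in PBS and 0 passed in LLC. Zyx was at -1.10 ± 0.23 in PBS (edgeR adjusted p = 0.0234), and Parvb, which binds integrin-linked kinase, had its smallest p at day 7, where LLC was 0.40 ± 0.07 higher (0.334). Of 8 cell-surface ligands of leukocyte integrins, 0 passed in any of the 5 comparisons. Icam1, the ligand of Itgb2 integrins, was at 13.8 ± 4.77 CPM in day 21 PBS (SD, n = 4) and 33.6 ± 12.5 CPM in day 21 LLC (n = 5), a difference of 1.27 ± 0.29 (edgeR adjusted p = 0.0751). Jam2 had 0.60 ± 0.17 (0.102). In the tumour comparisons and in the difference between days, 0 genes of the 5 lists passed.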

How the data were processed

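Sequencing measured poly(A)-selected RNA in 18 libraries in 4 groups. The deposited counts are estimates by RSEM of reads per gene that the authors made whole numbers (100% whole), after fastp 0.23.0, per the submitters' processing notes, which name GRCm38 and mm10. For the aligner and the annotation release: not given in the sources used here. TPM values as deposited are per length and were used for levels between genes and in alternatives. The deposited log2 ratios and the deposited p-value and FDR columns are the authors' own comparison.

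Here counts were tested with edgeR 4.0.16 in R 4.3.3 (TMM, filterByExpr, quasi-likelihood F test, two-sided, Benjamini-Hochberg over all genes at 0.05): LLC against PBS within each day, and 1 fit of 18 libraries for the days and for the difference between tumour effects. The SE is the log2 difference divided by the square root of F. CPM are TMM-scaled over 18 libraries. Alternatives used DESeq2 1.42.0, limma 3.58.1 on log2(TPM + 1) or log2(TPM + 0.1), other filters, left-out libraries and a muscle score. Tables were joined in Python 3.11.15 with pandas 2.3.3. The fits were tested on simulated data. The lowest chi-square per gene over 32 replicate pairs was 15.2, so each library counted once. Deviations from group means in same-numbered day 7 PBS and LLC libraries had r = 0.254, 0.143, 0.582 and 0.208. At day 21 the values were -0.29 to 0.334. Libraries of different numbers were not compared, so these values cannot show whether the numbers pair the samples. The labels state no pairing, and the main tests used none. Same-numbered PBS libraries of the 2 days had r = -0.29, -0.265, -0.423 and 0.549. Both day 7 libraries 3 had the highest muscle marker sums of their groups (6543 and 1799 TPM). Members and lists were chosen with earlier results of these data known. The members given in every library were 12 fixed by textbook role, plus up to 4 with the smallest p per comparison and role group. From each list the 2 with the smallest p are named. Coordinates, exon overlaps (GENCODE vM21) and RefSeq promoters are on GRCm38. Of the tested members, 1 is counted but not otherwise reported here.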

Additional observations from a re-analysis of the deposited data

Results flagged for a closer look

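For members given by library, 80 groups were checked for a sample far from the others, and 12 samples were found, where chance gives about 1 in 20 groups. In day 7 PBS, library 4 was far above the others for Lamc1 (926 CPM, next 811) and Itgam (107, next 68.8), and library 2 far below for Itgal (4.54, next 7.01). In day 7 LLC, library 5 was far below for Itga11 (7.63, next 23.8). In day 21 PBS, library 4 was far above for Itgam (75.1, next 8.23), Itgax (14.5, next 3.20) and Itgb2 (78.6, next 13.9). In day 21 LLC, library 1 was far above for Itgav (70.2, next 44.7) and Itgam (152, next 68.7), and library 3 for Itgal (63.0, next 10.9) and Itgb7 (87.6, next 34.2). Library 4 of that group was far below for Itgb5 (65.9, next 95.6).

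The tumour effect differed between days by edgeR for Lamc3 (-1.83, adjusted p = 0.0269) and for Itgb7 (3.07, adjusted p = 0.0199).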

How the results depend on the processing

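Of the alternatives for the log2 differences of the named members, 337 kept their direction and side of the threshold, 103 fell short of it and 16 passed it. The day 7 comparison gave 0 members throughout. At day 21, where edgeR gave 0, DESeq2 gave 9 members, 1 fit of all 18 libraries 12, leaving out PBS library 4 and LLC libraries 1 and 3 together 12, and a muscle score as covariate 2. With that score, 130 of 13564 genes were called. Leaving out 1 library gave 0 to 13, the 13 without PBS library 4 and 1 without LLC library 2. For PBS between days, 8 became 18 without those 3 libraries and 2 to 13 without 1 library: 5, 4 and 4 without day 7 PBS libraries 1, 2 and 4, and 4, 2, 4 and 13 without day 21 PBS libraries 1 to 4. Among all genes, 3423 of 14011 were called in PBS without those 3 libraries, and 449 of 13975 in the main fit. Leaving out day 7 PBS library 1, 2 or 4 gave 156, 81 and 65 genes. Leaving out day 21 PBS libraries 1 to 4 gave 93, 41, 83 and 1692, with 14146 to 14177 genes tested in these fits. For LLC between days, 6 became 3 with no filter, 1 with limma on either TPM scale, 2 with the replicate block, 0 with only the 2 groups and 1 to 8 without 1 library. It was 1 without day 7 LLC library 1, 2, 3 or 4 or day 21 LLC library 3, and 2 without day 21 LLC library 4. In the same order these fits called 20, 15, 52, 72, 94 and 74 of all genes (13924 to 13970 tested). The main fit called 248 of 13975. For the difference between days, 2 became 4 with DESeq2, 1 and 0 with limma (pseudocounts of 1 and 0.1) and 1 with the replicate block. That block fit, which omits LLC library 5 of each day, called Lamc3 (-2.04, edgeR adjusted p = 0.0213) and not Itgb7 (0.0752). Without the 3 libraries 12 members were called, with 1190 of 14011 genes. The count was 0 to 11 without 1 library, the 11 without day 21 PBS library 4. It was 0 or 1 without day 7 PBS library 1, 2 or 4, day 7 LLC library 1, 2 or 5, or day 21 PBS library 1, 2 or 3. In the same order these fits called 14, 7, 8, 17, 11, 20, 6, 10 and 8 of all genes (13944 to 14177 tested). The main fit called 58 of 13975, and the fit without day 21 PBS library 4 called 1222 of 14146. Without the 3 libraries, Itga4 between days in LLC turned from 0.38 to -0.80 ± 0.24 (edgeR adjusted p = 0.0463). The cause was not tested. At day 7 the replicate block, which omits LLC library 5, left 0 members.

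TPM scaling moved the median log2 difference of all genes from 0.01 to -0.18 and -0.20 in PBS between days (pseudocounts of 1 and 0.1), and from 0.02 to 0.14 and 0.15 at day 21. Lama1, Itgb6 and Itgad had too few counts to pass the filter at this depth.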
